A study of Rattus with 12 samples.

Results

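High dose fentanyl cultures were compared with low dose fentanyl cultures, which asks how gene expression differed between a 10 µM and a 0.01 µM exposure of the same kind of culture. The comparison used 8 of the 12 cultures of the series and every gene that was counted often enough to test, 12110 of 17337. All were primary Sprague Dawley rat co-cultures of cortical neurons and astrocytes bought from Lonza and oligodendrocyte precursor cells bought from ScienCell. Treatment began between 24 and 26 days in vitro and lasted 4 days. Low dose cultures B, H, N and Q received 0.01 µM fentanyl, and high dose cultures C, I, O and R received 10 µM. The 4 untreated cultures, A, G, M and P, received no fentanyl, did not enter the tests and are given as background. Each high dose culture has a low dose neighbour in the alphabet, and the pairs B and C, H and I, N and O, and Q and R are called letter sets here. What the letters stand for was not given, nor whether the cultures of a dose came from separate cell preparations. The p-values therefore concern these wells and not animals. In the main fit they measure the spread left after factors taken from the same 8 cultures, not the whole spread between wells.

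Fentanyl is a synthetic agonist of the mu-opioid receptor, a receptor that couples to inhibitory G proteins, lowers cyclic AMP and opens potassium channels, and so quiets neurons that carry it. Neuropeptides are made as large precursors, packed with granins into dense-core vesicles and released under strong stimulation, and the genes of many of them follow neuronal activity. Astrocytes and microglia answer danger signals through the transcription factor NF-kB, with complement proteins, chemokines and adhesion molecules among the best known products.

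Total counts were 12907388 to 16512387 per low dose culture and 15102785 to 24813893 per high dose culture. The cultures resembled their letter set more than their dose. Spearman's correlation of their levels across genes, which are not independent replicates, was 0.985 to 0.996 within a letter set and 0.942 to 0.993 within a dose. Expression is given in CPM (reads of a gene relative to the library's total), scaled by the trimmed mean of M values. A gene was called higher or lower when edgeR's quasi-likelihood test gave an adjusted p below 0.05 with a log2 fold change larger than 0.5 in size, with 3 factors of unwanted variation in the fit. A second fit took the letter sets as a block in place of those factors, and where a named call was lost with it, its adjusted p is given singly or as a range. Untreated culture G stood apart, with a mean neuronal marker level of 4.25 on the log2(CPM + 0.5) scale against 7.37 to 7.82 in the other untreated cultures, and is given separately.

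Between the 2 doses, 84 genes were called higher and 68 lower at the high dose. These were 0.694% and 0.562% of the genes tested. With the letter sets as a block, 4 genes were called higher, or 0.033%, and 17 were called lower, or 0.14%. Of those 21 genes, 19 were also called with the factors. The 4 higher genes were Cfb, Vcam1, Chi3l1 and Nfkbia. The lower ones were Adcyap1, Vgf, Scg2, Bdnf, Penk, Cartpt, Crhbp, Cckbr, Mas1, Ostn, Mustn1, Dok5, Fam81a, Fam150b, Cox6a2, Apln and Ednrb, of which Apln and Ednrb were called only with the block. All 152 genes called with the factors had the same direction in both fits and without either. They were chosen for their difference in these same counts, so that agreement is not a result. The number of calls depended on how the letter sets were modelled and on the test used. With neither factors nor block no gene passed, the smallest adjusted p was 1 and 179 genes had an unadjusted p under 0.05, against 2393 with the factors and 1619 with the block. DESeq2 with the same 3 factors called 91 genes higher and 93 lower. Leaving out 1 culture at a time gave 13 (without H) to 184 (without C) higher and 16 (without H) to 192 (without B) lower calls.

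Looking inside the letter sets, 75 of the 84 higher genes were higher in all 4 sets and 63 of the 68 lower genes were lower in all 4. Over all genes tested, 11.7% were higher in all 4 sets and 11.1% were lower in all 4. The calls had been chosen for their difference, so no test is drawn from these counts. The sets did not contribute equally. Median differences of the called higher genes on the log2(CPM + 0.5) scale were 0.40 in B and C, 1.04 in H and I, 0.53 in N and O, and 0.68 in Q and R. For the called lower genes the medians were -0.40, -0.76, -1.31 and -0.85 in the same order. Thus set B and C was weakest in both directions, set H and I was strongest for the higher genes and set N and O for the lower genes. When the letter sets were ignored, the 2 doses overlapped for most called genes. Only 11 of the 84 higher and 8 of the 68 lower genes had every high dose culture on one side of every low dose culture, against 0.677% and 0.528% of all genes tested. An exact two-sided permutation test of the pooled cultures has 70 arrangements and cannot go below 0.0286, which 146 genes reached, and none passed an adjustment over all genes (smallest adjusted p = 1).

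**Figure D1:**
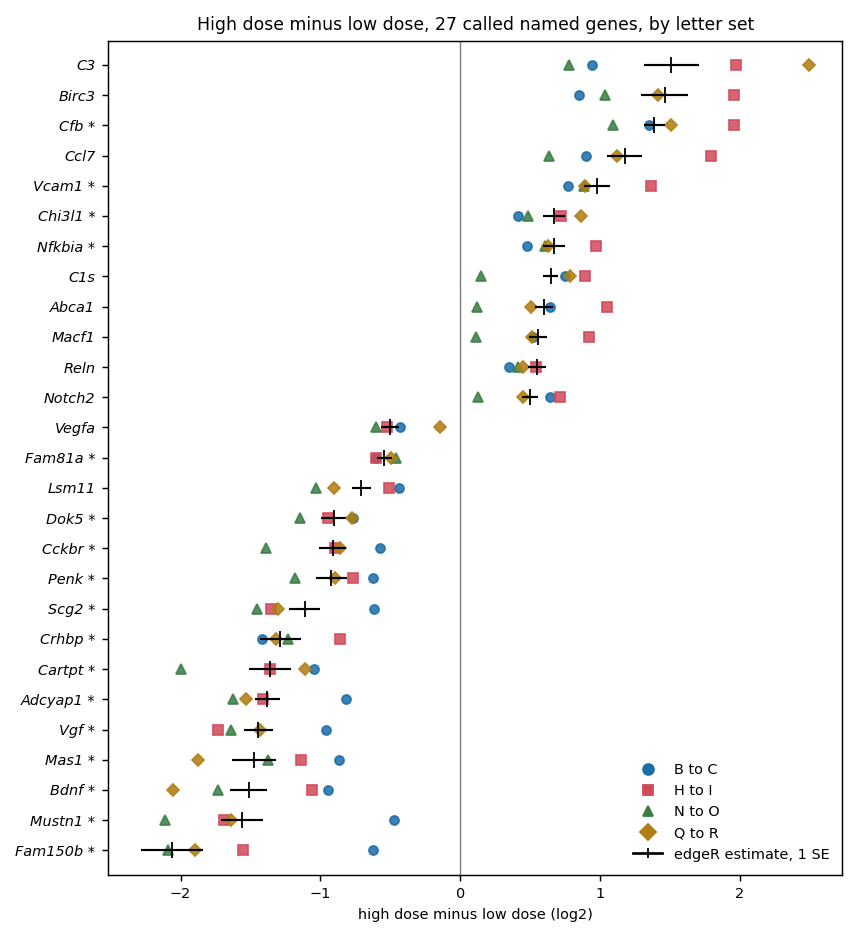
Log2 difference between the high and the low dose (horizontal axis) for the 27 named genes that were called, with 1 coloured point per letter set on the log2(CPM + 0.5) scale and a black bar for the edgeR estimate with 1 SE. An asterisk marks genes also called with the letter sets as a block. The genes were chosen to lie on the same side of 0 in all 4 letter sets, so that agreement is not a result. Set B and C gives the smallest drop for Mustn1, Fam150b and Adcyap1.

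Neuropeptide precursors and granins held the most lower calls of the 31 gene lists examined. Of 33 such genes tested, 11 were called lower and none higher, and 18 were lower in all 4 letter sets while 1 was higher in all 4. The median of the list was -0.48 on the log2 scale, where the median of all genes tested was -0.0046. The 11 were Adcyap1, Vgf, Scg2, Cartpt, Crhbp, Penk, Trh, Pdyn, Crh, Pnoc and Nppc. With the block 7 were called, namely the first 6 of these and Apln. Leaving out 1 culture at a time gave 5 (without H) to 12 lower calls (without B, or without C) in this list, 7 without Q or R, and none higher.

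Adcyap1 encodes PACAP, a peptide that raises cyclic AMP in its target cells. It stood at 13.9, 85.8, 116 and 121 CPM in low dose cultures B, H, N and Q and at 7.64, 32.0, 37.3 and 41.5 CPM in high dose cultures C, I, O and R. Each high dose culture was below its low dose neighbour, although both B and C lay below the other 6, so the doses overlapped. The log2 fold change was -1.38 ± 0.09 (SE), adjusted p = 0.000407 by edgeR and 0.0101 with the block. Untreated cultures A, M and P held 14.4, 72.7 and 99.4 CPM and untreated G held 1.24.

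Vgf, the precursor of several secreted peptides and a protein of dense-core vesicles, was measured at 107, 483, 541 and 432 CPM at the low dose and 54.9, 145, 173 and 159 CPM at the high dose. The drop was of similar size in H and I, N and O, and Q and R, and smaller in B and C (-0.96 against -1.73, -1.64 and -1.43). Its fold change was -1.44 ± 0.10 with an adjusted p of 0.00077 and of 0.0101 with the block. Scg2, a granin, went from 75.4, 278, 308 and 795 CPM at the low dose to 49.1, 108, 112 and 322 CPM at the high dose. Culture Q exceeded all others, yet its partner R lay above every other high dose culture too, and the pairwise differences were -0.62, -1.35, -1.46 and -1.30. It fell by 1.11 on the log2 scale (SE 0.11, adjusted p = 0.00321, with the block 0.0226).

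Cartpt, whose peptide acts on feeding and reward circuits, was present at 10.3, 17.0, 21.0 and 30.3 CPM in the low dose and 4.74, 6.31, 4.90 and 13.8 CPM in the high dose cultures. Only high dose R exceeded any low dose culture, and it exceeded B alone. The change was -1.36 ± 0.15 (adjusted p = 0.00499). Crhbp, which binds and holds back corticotropin-releasing hormone, read 4.31, 8.21, 11.4 and 9.83 CPM against 1.30, 4.31, 4.58 and 3.64 CPM, and B was the only low dose culture that a high dose culture reached. It changed by -1.29 ± 0.15 (adjusted p = 0.00545). Untreated cultures A, M and P gave 11.1, 5.14 and 27.7 CPM for Cartpt and 4.24, 7.68 and 7.90 CPM for Crhbp.

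Trh, the precursor of thyrotropin-releasing hormone, separated the doses completely, with 9.08, 7.90, 6.07 and 8.04 CPM at the low dose and 4.50, 3.26, 1.61 and 3.84 CPM at the high dose. It was called with the factors (-1.23 ± 0.19, adjusted p = 0.016) and just missed with the block (adjusted p = 0.0548). Crh, the stress hormone precursor, ran at 0.154, 0.987, 3.07 and 4.67 CPM against 0.0592, 0.501, 0.903 and 0.992 CPM, so set B and C carried almost no counts of it. Its change was -1.57 ± 0.28, adjusted p = 0.0244, or 0.0819 with the block. Nppc, the C-type natriuretic peptide precursor, changed by -1.32 ± 0.27 (adjusted p = 0.0391, with the block 0.143) and only B and C held more than 2 CPM. Apln, encoding apelin, differed by -0.54, -0.52, -0.64 and -0.53 in the 4 sets and passed with the block (adjusted p = 0.0276) but not with the factors (adjusted p = 0.0606).

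Not all precursors were called. Npy, the neuropeptide Y gene, was lower at an adjusted p of 0.0379 but missed the fold threshold (-0.48 ± 0.10). The somatostatin gene Sst had a fold change of 0.16 ± 0.11 (adjusted p = 0.455) and the granin genes Chga and Chgb had 0.02 ± 0.09 and -0.19 ± 0.06, neither called (adjusted p = 0.933 and 0.147). Vip, the vasoactive intestinal peptide gene, gave -0.15 ± 0.21 with an adjusted p of 0.756.

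Receptors of neuropeptides held fewer calls. Of 27 tested, 3 were called lower, none higher, and the median was -0.23. With 1 culture left out there were 2 to 5 lower calls (5 without C), and 1 higher call without B or C. Cckbr, the cholecystokinin receptor of the brain, was at 3.85, 16.5, 30.9 and 40.8 CPM at the low dose and at 2.43, 8.67, 11.5 and 22.2 CPM at the high dose. Cultures of 1 dose differed widely, lowest in B and C, and each pair dropped. The fold change was -0.91 ± 0.10 (adjusted p = 0.00457, with the block 0.0394). Mas1, a receptor of the angiotensin system, changed by -1.47 ± 0.16 (adjusted p = 0.00457), from 1.92, 7.90, 13.2 and 17.1 to 0.83, 3.31, 4.77 and 4.30 CPM. Tacr3, the neurokinin B receptor, was also called (-1.50 ± 0.26, adjusted p = 0.0215), though not with the block (adjusted p = 0.0782), and its level was highest in low dose N and Q. Ednrb, an endothelin receptor of astrocytes, was lower in each set by a similar amount (-0.42, -0.58, -0.44 and -0.57) and was called with the block alone (adjusted p = 0.0276), where its estimate of -0.50 reached the fold threshold that -0.42 with the factors did not.

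Among secreted factors whose genes follow neuronal activity, Bdnf, which sustains synapses, gave 3.08, 17.7, 41.3 and 66.1 CPM at the low dose and 1.36, 8.22, 12.1 and 15.5 CPM at the high dose. The difference was -2.05 in Q and R, where the level was highest, and -0.94 in B and C, where it was lowest. The fold change was -1.51 ± 0.13, adjusted p = 0.00272, or 0.0226 with the block. Untreated A, M and P gave 2.24, 24.0 and 55.4 CPM. Ostn, encoding the small secreted peptide osteocrin, had no count in B or C and went from 9.75, 22.6 and 14.4 CPM in H, N and Q to 1.65, 3.16 and 1.65 CPM in I, O and R. It was the gene with the lowest fold change of all tested, -2.62 ± 0.23 (adjusted p = 0.005, with the block 0.0101). Nptx2, a pentraxin that clusters glutamate receptors, changed by -1.26 ± 0.21 (adjusted p = 0.0185), mostly in N and O and in Q and R, and was not called with the block (adjusted p = 0.126).

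Those 3 were the only ones called among 27 activity-regulated effectors, whose median was -0.22. With 1 culture left out there were from 1 lower call (without N) to 5 lower and 1 higher (without B). Of 17 activity-regulated transcription factors none was called by edgeR or DESeq2, 4 had an unadjusted p under 0.05, and the median was -0.06. Fos and Egr1, immediate early genes, had fold changes of 0.11 ± 0.12 and 0.17 ± 0.25 (adjusted p = 0.661 and 0.767). Npas4, induced by calcium entry in neurons, ran from 0.539 CPM in B to 79.8 CPM in H, and the pairs differed by -0.50, 0.03, -2.10 and -2.38. Arc, a regulator of synaptic strength, ran from 3.54 to 169.5 CPM in the same cultures and the pairs differed by -0.62, -0.18, -1.10 and -1.67. Sets N and O and Q and R therefore had large negative differences in both genes that H and I did not, and neither gene passed (adjusted p = 0.526 and 0.299).

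Of 30 neurotrophins, glial trophic factors and their receptors, 4 were called lower, none higher, and the median was -0.04. Only 1 was called without H, N, I or O, and 2 without Q or R. The 4 were Bdnf, Vegfa, Gfra2 and Ret. Gfra2, the neurturin receptor, changed by -0.64 ± 0.13, and Ret, the signalling receptor it works with, by -0.64 ± 0.14 (adjusted p = 0.0391 and 0.0495). Neither was called with the block (adjusted p = 0.141 and 0.23).

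**Figure D2:**
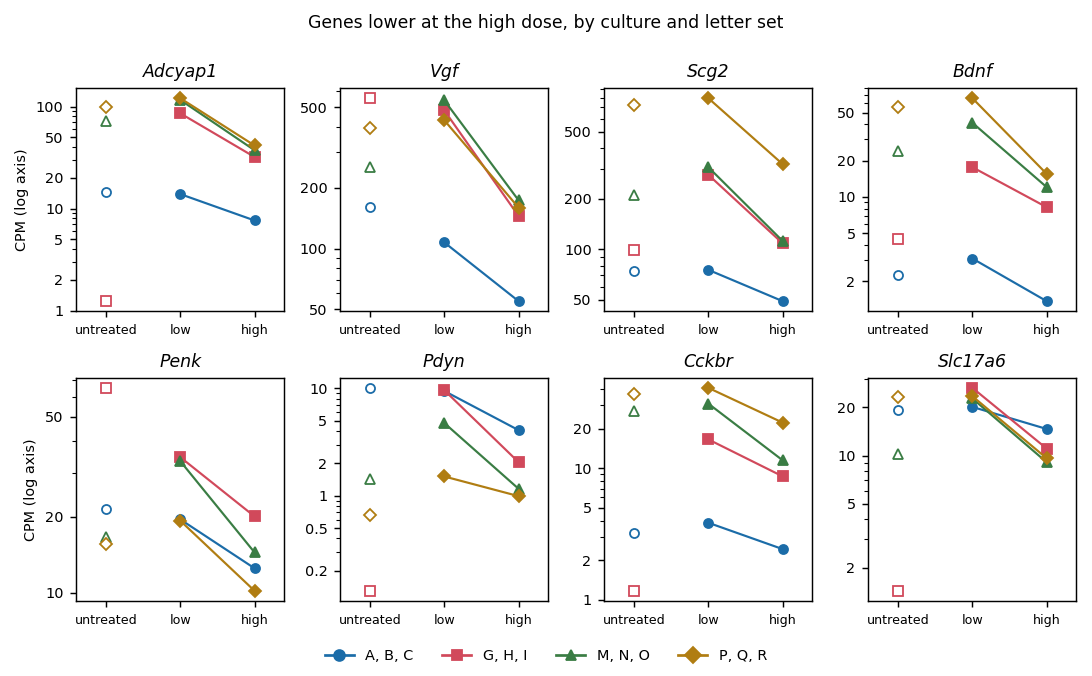
CPM on a log axis for 8 genes that were lower at the high dose, with 1 colour per letter set. Open symbols are untreated cultures, filled symbols joined by a line are the low and the high dose culture of a set. Every line falls, B and C are the lowest treated cultures for Adcyap1, Vgf, Scg2, Bdnf and Cckbr.

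The opioid peptides were among the lower precursors. Penk, the enkephalin precursor, measured 19.5, 34.6, 33.3 and 19.3 CPM at the low dose and 12.5, 20.1, 14.4 and 10.2 CPM at the high dose. Only high dose I exceeded any low dose culture. Its fold change was -0.92 ± 0.11 (adjusted p = 0.00672, with the block 0.0283). Pdyn, the dynorphin precursor, dropped from 9.47, 9.63, 4.76 and 1.51 to 4.08, 2.05, 1.16 and 0.992 CPM, with the smallest difference in Q and R, where it was rarest. It was called with the factors (-1.64 ± 0.25, adjusted p = 0.0166) and not with the block (adjusted p = 0.0854). Pnoc, the nociceptin precursor, kept the doses apart, at 3.16, 6.85, 4.17 and 8.87 CPM against 2.13, 2.76, 2.77 and 2.93 CPM, with a change of -1.05 ± 0.19 (adjusted p = 0.0247, with the block 0.125). For Penk, Pdyn and Pnoc, untreated A, M and P gave 21.5, 16.6 and 15.5, then 10.1, 1.44 and 0.665, then 2.77, 3.50 and 6.32 CPM.

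The mu, kappa and delta receptor genes were scarce. Oprm1, the mu-opioid receptor gene, had 3 to 6 counts per low dose culture and 1 to 5 per high dose culture, and Oprk1, the kappa-opioid receptor gene, had 0 to 4 counts in the 8 cultures. Both were too low to test, so a difference in either was not detectable at this depth. Oprd1, the delta-opioid receptor gene, had 6 to 26 counts and gave 0.36 ± 0.26, and Oprl1, the nociceptin receptor gene, at 16.9 to 29.9 CPM, gave 0.23 ± 0.11 (adjusted p = 0.48 and 0.305). Downstream of such receptors 2 adenylyl cyclases went opposite ways. Adcy8 was lower (-0.60 ± 0.10, adjusted p = 0.0181) and Adcy1 was higher (0.53 ± 0.09, adjusted p = 0.0215), neither of them called with the block (adjusted p = 0.0883 and 0.147). For Adcy1 the doses did not overlap, with 115, 76.3, 119.9 and 103 CPM at the low dose and 136, 152, 151 and 148 CPM at the high dose. In all, 22 genes of opioid receptors, peptides, G proteins and effectors were tested, 4 were lower, 1 was higher and the median was 0.06. Without H none was called, and without N, Q, O or R there were 2 lower calls and 0 higher. Kcnj6, a potassium channel opened by G proteins, missed the fold threshold (0.36 ± 0.06, adjusted p = 0.0244).

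Fam150b, which encodes a ligand of the receptor tyrosine kinase ALK, was rare, with 1.0, 3.76, 8.22 and 4.74 CPM at the low dose and 0.474, 0.952, 1.55 and 0.909 CPM at the high dose. It changed by -2.06 ± 0.22 (adjusted p = 0.00445, with the block 0.0274). Mustn1, a small nuclear protein gene known from muscle and skeleton, went from 3.08, 24.8, 34.2 and 96.4 to 2.07, 7.36, 7.54 and 30.7 CPM. B and C had few counts and the smallest drop. The change was -1.56 ± 0.15 with an adjusted p of 0.00321, or 0.0226 with the block. Dok5, an adaptor of receptor tyrosine kinases, was lower by a like amount in each set (-0.76, -0.94, -1.14 and -0.77), and so was Fam81a (-0.60, -0.60, -0.46 and -0.49). Their fold changes were -0.90 ± 0.09 and -0.54 ± 0.05 (adjusted p = 0.00321 and 0.00344, with the block 0.0226 and 0.0226). Lsm11, a subunit of the particle that processes histone messages, changed by -0.71 ± 0.07 (adjusted p = 0.00321) and just missed with the block (adjusted p = 0.0568). Cox6a2, a subunit of respiratory complex IV found in muscle and some interneurons, was called in both fits (-0.69 ± 0.10, adjusted p = 0.0117 and 0.0226).

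Slc17a6, which loads glutamate into vesicles, separated the doses, at 20.2, 26.5, 22.8 and 23.5 CPM in the low dose and 14.7, 11.1, 9.09 and 9.63 CPM in the high dose cultures. Its fold change was -1.09 ± 0.15 (adjusted p = 0.0111, with the block 0.0568). Its cortical relative Slc17a7 had a fold change of 0.30 ± 0.06, under the threshold for a call (adjusted p = 0.0399). Untreated A, M and P held 19.3, 10.2 and 23.1 CPM of Slc17a6, so M was near the high dose cultures and A and P near the low dose ones.

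Genes of innate immunity held many of the higher calls. Among 24 complement genes 4 were called higher, none lower, with a median of 0.0036. Within sets the median was 0.32 in B and C, 0.35 in H and I, -0.24 in N and O and -0.05 in Q and R. Cfb, factor B of the alternative pathway, was the gene with the smallest adjusted p of all tested. It stood at 71.0, 19.5, 46.4 and 3.99 CPM in low dose B, H, N and Q and at 181, 77.2, 99.7 and 12.3 CPM in high dose C, I, O and R. Levels differed widely within a dose, lowest in Q and R, so the doses overlapped although each pair rose by 1.09 to 1.96. The fold change was 1.39 ± 0.08, adjusted p = 0.00023, or 0.0169 with the block. Untreated A, M and P held 73.1, 14.9 and 2.49 CPM and G 60.2.

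C3, the central protein on which all complement pathways meet, gave 127, 125, 382 and 55.2 CPM at the low dose and 244, 493, 657 and 313 CPM at the high dose. N was the one low dose culture above any high dose culture, and the pairs differed by 0.94, 1.98, 0.78 and 2.49. Its change of 1.51 ± 0.19 was called with the factors (adjusted p = 0.00958) and not with the block (adjusted p = 0.0883). The same held for C1s, a protease of the classical pathway (0.65 ± 0.06, adjusted p = 0.00272, with the block 0.0955), and for Serping1, the inhibitor of that protease (0.51 ± 0.08, adjusted p = 0.0147, with the block 0.0883). C1qa and C1qc, made by microglia, had fold changes of -0.18 ± 0.07 and -0.29 ± 0.11 and were not called (adjusted p = 0.212 and 0.209).

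Of 29 NF-kB target genes, 8 were called higher and none lower, the median was 0.31 and 16 were higher in all 4 sets. With 1 culture left out, 3 (without H) to 12 (without C) were called, 5 without N, Q or R. Vcam1, an adhesion molecule for white blood cells, separated the doses, with 71.0, 36.8, 42.7 and 40.4 CPM at the low and 121, 95.6, 79.1 and 75.5 CPM at the high dose. It changed by 0.98 ± 0.09 (adjusted p = 0.00321, with the block 0.0226). Nfkbia, the inhibitor that NF-kB induces to shut itself off, separated them too, at 33.0, 26.7, 39.1 and 26.5 against 46.1, 52.7, 59.8 and 41.1 CPM. Its change was 0.67 ± 0.08 (adjusted p = 0.00665, with the block 0.0467). Birc3, an inhibitor of apoptosis, read 3.62, 2.22, 5.48 and 3.71 CPM and then 6.93, 10.1, 11.7 and 10.7 CPM, again with no overlap, and a change of 1.46 ± 0.17 (adjusted p = 0.005, with the block 0.0607). Since the doses did not overlap for Vcam1, Nfkbia and Birc3, their pooled exact two-sided permutation p could only be 0.0286, the smallest the design allows. It adds nothing to the separation itself.

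The other 5 NF-kB targets were called with the factors alone. They were Lcn2, Il1b, Sod2, Tnfaip2 and Tlr2, with fold changes of 1.80 ± 0.25, 1.90 ± 0.29, 0.73 ± 0.11, 0.94 ± 0.15 and 0.79 ± 0.17. Adjusted p ran from 0.0117 for Lcn2 to 0.046 for Tlr2, and with the block from 0.077 for Il1b to 0.176 for Tlr2. Lcn2, an iron-binding protein of activated astrocytes, was abundant, with 112, 156, 448 and 181 CPM at the low dose and 324, 611, 646 and 1389 CPM at the high dose, and untreated G was higher still, at 1898 CPM. Il1b, the interleukin-1 beta gene, never exceeded 4.71 CPM in these 8 cultures. Icam1, another adhesion molecule, was not called (0.24 ± 0.07, adjusted p = 0.0935).

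Of 16 chemokine genes tested, 6 were called higher and none lower, and 8 were higher in all 4 sets. Ccl2 and Ccl7, which draw monocytes, gave 9.70, 13.5, 54.1 and 16.1 CPM and 14.9, 13.2, 70.3 and 18.6 CPM at the low dose, against 15.2, 53.5, 112 and 39.0 CPM and 28.1, 46.9, 109 and 41.2 CPM at the high dose. N was the highest low dose culture and O the highest high dose culture for both. Fold changes were 1.33 ± 0.17 and 1.18 ± 0.12 (adjusted p = 0.00958 and 0.00445, with the block 0.0607 and 0.0713). Cxcl1 and Cxcl2, which draw neutrophils, changed by 1.70 ± 0.23 and 2.03 ± 0.44, Ccl3 by 1.65 ± 0.31, and Cxcl13, which draws B cells, by 2.56 ± 0.45. Levels were low for Cxcl2, at 0.069 CPM in Q to 6.64 CPM in O, and for Ccl3, at 0.137 CPM in Q to 2.30 CPM in I. Cxcl2 was lower in C than in B (-0.18). No chemokine passed with the block (adjusted p of the 6 from 0.0607 for Ccl2 to 0.179 for Cxcl2), and leaving out 1 culture at a time gave from 0 (without H) to 7 (without B, or without C) higher calls and 3 without any of the others. The Cxcl13 counts came from high dose I and O, with 9.17 and 7.16 CPM, where no other treated culture exceeded 1.48 CPM. Untreated G held 23.0 CPM of it. The list's median was 0.99 with the factors, 0.67 with the block and 0.50 with neither. Within sets it was 0.22 in B and C, 1.11 in H and I, 0.18 in N and O and 0.65 in Q and R.

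**Figure D3:**
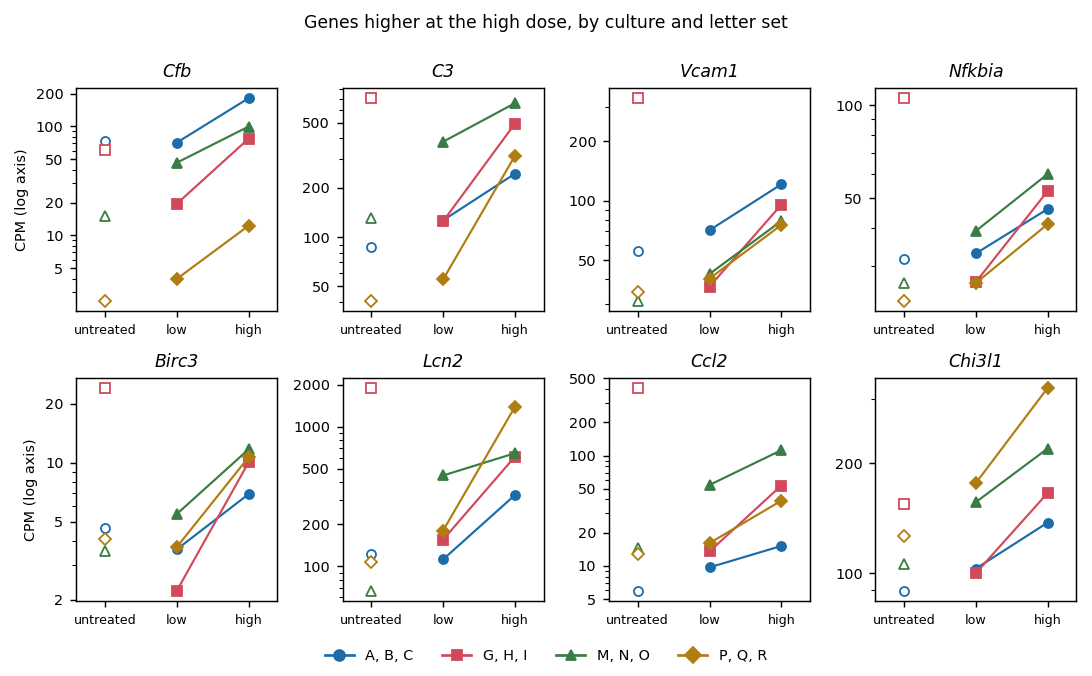
CPM on a log axis for 8 genes that were higher at the high dose, drawn with 1 colour per letter set, open symbols for untreated cultures and a line from the low to the high dose culture. Every line rises, and untreated G lies above the high dose cultures for C3, Vcam1, Nfkbia, Birc3, Lcn2 and Ccl2.

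Interferon-stimulated genes leaned the same way, with 4 of 40 called higher, none lower and a median of 0.30. Leaving out 1 culture gave 1 (without N) to 6 (without R) higher calls, and 2 without H, Q, C or O. These were Gbp2 and Gbp5, guanylate-binding proteins, Ifit3 and the regulator Irf7, with fold changes of 0.83 ± 0.14, 0.60 ± 0.12, 1.15 ± 0.24 and 0.53 ± 0.10. Ifit3 showed how uneven these genes were, with 36.7, 3.83, 1.57 and 0.550 CPM at the low dose and 91.1, 5.66, 7.87 and 0.496 CPM at the high dose. B and C were above the rest, and Q and R differed by -0.08. No interferon-stimulated gene was called with the block, where the 4 had an adjusted p from 0.0724 for Gbp2 to 0.256 for Irf7. Genes of antigen presentation by the major histocompatibility complex gave no call among 26 in edgeR or DESeq2, with 12 at an unadjusted p under 0.05, though 12 were higher in all 4 sets and the median was 0.17. Ncf1, a subunit of the phagocyte oxidase, chosen after its values were seen, was called higher (0.74 ± 0.10, adjusted p = 0.012, with the block 0.0713).

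Reactive astrocyte genes gave 6 higher and 1 lower call among 32, with a median of 0.15. Within sets the median was 0.06 in B and C, 0.50 in H and I, -0.19 in N and O and 0.08 in Q and R. Without H there was 1 higher call, and the lower calls were 3 without B or C and 0 without any other culture. Chi3l1, a secreted lectin of reactive astrocytes, rose in both fits. It was at 103, 100.2, 157 and 176 CPM at the low dose and 138, 166, 219 and 321 CPM at the high dose, so that low dose Q lay above 2 of the high dose cultures. Its change was 0.67 ± 0.08 (adjusted p = 0.0062, with the block 0.044). C3, Lcn2, Serping1 and Gbp2 appear again in this list, and Steap4, a metalloreductase, completes the 6 (1.36 ± 0.29, adjusted p = 0.0445, with the block 0.183). Gfap, the classic astrocyte filament gene, was not called (-0.46 ± 0.16, adjusted p = 0.147) and neither was Serpina3n (0.46 ± 0.11, adjusted p = 0.0562).

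Among further named genes, Abca1, which exports cholesterol to lipoproteins, gave 77.0, 71.0, 159 and 107 CPM at the low dose and 121, 148, 172 and 152 CPM at the high dose. Notch2, a receptor of glial progenitors, and Macf1, a giant linker of actin and microtubules, had the same outline, with a strong difference in H and I and a weak one in N and O. Fold changes were 0.60 ± 0.06, 0.50 ± 0.06 and 0.56 ± 0.07 (adjusted p = 0.00445, 0.00499 and 0.00672). None of these passed with the block (adjusted p = 0.149, 0.125 and 0.149). Reln, the matrix glycoprotein that guides cortical layering, was more even across sets (0.35, 0.54, 0.41 and 0.45), with a change of 0.55 ± 0.06 (adjusted p = 0.00532, with the block 0.0521).

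Itpr2, a calcium release channel of astrocytes, and Gpnmb, a glycoprotein of phagocytes and glia, had small adjusted p-values (0.00891 and 0.00958) but fold changes under the threshold. Those were 0.41 ± 0.05 and 0.48 ± 0.06. Gpnmb was among the most abundant genes named here, from 411 CPM in B to 2768 CPM in R, and differed by 0.30, 0.49, 0.48 and 0.33 in the sets.

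Lists of synaptic genes gave calls in small numbers. Called higher were 7.69% of glutamate receptor, 7.14% of GABA receptor and 9.09% of calcium channel and transport genes. Among all genes tested the share was 0.694%. Of 26 glutamate receptor genes 2 were called higher, none lower, and the median was 0.10. Without H or R none was called, 1 was without N, Q or O, and 4 were without B. The 2 called with all cultures were the NMDA receptor subunits Grin2a and Grin2b. Grin2b was at 38.8, 14.1, 30.3 and 20.1 CPM at the low dose and 55.2, 36.3, 37.1 and 34.2 CPM at the high dose, lowest in low dose H. Grin2a was at 24.6, 18.3, 39.5 and 25.2 CPM at the low dose and 29.7, 47.4, 54.0 and 37.9 CPM at the high dose. Changes of 0.68 ± 0.13 for Grin2a and 0.73 ± 0.10 for Grin2b were called with the factors (adjusted p = 0.0295 and 0.0124) and not with the block (adjusted p = 0.171 and 0.143). Untreated A, M and P held 28.7, 55.0 and 35.7 CPM of Grin2a and 50.7, 41.6 and 28.8 CPM of Grin2b. The obligate subunit Grin1 had 0.15 ± 0.06 (adjusted p = 0.192). Of 14 GABA receptor genes 1, Gabra4, was called higher (0.53 ± 0.08, adjusted p = 0.0166, with the block 0.0713), and it was lost without B, H, N or O.

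Of 22 genes of voltage-gated calcium channels and calcium transport, 2 were called higher, both with doses that did not overlap. Without H or N there was 1 higher call, and without B there were 4 higher and 1 lower. Slc8a2, a sodium-calcium exchanger, read 141, 142, 119 and 83.7 CPM at the low dose and 177, 203, 219.6 and 174 CPM at the high dose. Cacna1e, the R-type channel, read 35.5, 13.6, 35.5 and 22.2 and 53.8, 36.4, 39.1 and 36.6 CPM. Fold changes were 0.67 ± 0.10 and 0.72 ± 0.10 (adjusted p = 0.0145 and 0.0111, with the block 0.0819 and 0.179). Untreated A, M and P held 160.4, 206 and 95.7 CPM of Slc8a2 and 43.8, 53.7 and 33.4 CPM of Cacna1e.

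Among 49 potassium and sodium channel genes, Scn4b, a beta subunit of sodium channels, and Kcnh5 were called higher (1.18 ± 0.21 and 0.72 ± 0.15) and Kcnf1 lower (-0.54 ± 0.09), none of them with the block (adjusted p = 0.123, 0.156 and 0.118). No channel gene was called without H, N, Q or R, and there were 4 higher calls without C. In the list of 37 synaptic vesicle genes the active zone scaffold Pclo was called higher (0.56 ± 0.09, adjusted p = 0.0204, with the block 0.237) beside the lower Slc17a6. Its partner scaffold Bsn fell short of the fold threshold (0.47 ± 0.06, adjusted p = 0.0111). Map2, which stabilises dendritic microtubules, was called higher (0.55 ± 0.09, adjusted p = 0.017, with the block 0.129), with 516, 234, 371 and 330.3 CPM at the low dose and 679, 477, 475 and 434 CPM at the high dose. Untreated A, M and P held 585, 497 and 395 CPM of Map2. The perineuronal net list of 15 genes had Reln and Tnr higher and Nptx2 lower, with a median of -0.04. Tnr was lost with the block (adjusted p = 0.169), and the list had no call without H or R and 4 higher and 2 lower without C. The synaptic vesicle list had no call without H and 3 higher and 2 lower without C.

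Collagen and fibre assembly genes gave 7 lower calls among 36 and none higher, with a median of -0.37. The 7 were Lox, P4ha2, Ogn, Eln, Mfap4, Bgn and Fbln5, and none was called with the block (adjusted p from 0.125 for P4ha2 to 0.426 for Eln). No call remained without low dose N, nor without low dose H, and 12 were called without high dose C. Mfap4, a microfibril protein gene, was at 14.3, 14.2, 280.5 and 16.5 CPM at the low dose and 12.8, 12.7, 24.4 and 11.2 CPM at the high dose, so low dose N stood alone, and the sets differed by -0.16, -0.15, -3.50 and -0.53. Bgn, a small proteoglycan gene, gave 97.4, 55.8, 316 and 41.5 CPM against 97.0, 37.5, 55.5 and 22.6 CPM. The list's median was -1.85 in N and O but 0.04 in B and C, -0.03 in H and I and -0.24 in Q and R. Without factors it was -0.97. The marker level of fibroblasts and meningeal cells moved with it, at 7.28 in low dose N against 4.18 to 4.91 in B, H and Q and 4.01 to 5.55 in the high dose cultures, and its part in the result was not tested. Contractile genes Tagln, Cnn1 and Mylk had the same outline, with differences of -2.65, -2.45 and -2.20 in N and O and fold changes of -0.91 ± 0.16, -1.15 ± 0.18 and -0.92 ± 0.16. None was called with the block (adjusted p = 0.325, 0.233 and 0.284).

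P4ha2, a collagen hydroxylase that hypoxia induces, was lower in all 4 sets (-0.25, -0.48, -0.86 and -0.40). It and Vegfa, the endothelial growth factor, were the only ones called among 30 hypoxia and glycolysis genes, both lower, and none was called with the block. Leaving out 1 culture gave from 0 (without H, N or O) to 5 (without C) lower calls in this list, 4 without B and 1 without Q, I or R. Vegfa was at 503, 204, 194 and 71.3 CPM at the low dose and 373, 141, 128 and 64.5 CPM at the high dose, a difference in each set that was small next to that between sets (-0.50 ± 0.07, adjusted p = 0.00958, with the block 0.105). Of the 30 genes, 10 were lower in all 4 sets, none higher, and the median was -0.27, made mostly by sets H and I and N and O at -0.38 and -0.43, against -0.03 in B and C and 0.0048 in Q and R. Oxidative phosphorylation genes showed small differences. None of 48 was called by edgeR or DESeq2, and 20 had an unadjusted p under 0.05. Of the 48 genes, 24 were lower in all 4 sets and none was higher in all 4, where 11.1% of all genes were lower in all 4. Their median was -0.11, with a range of -0.22 to 0.09 on the log2 scale.

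**Figure D4:**
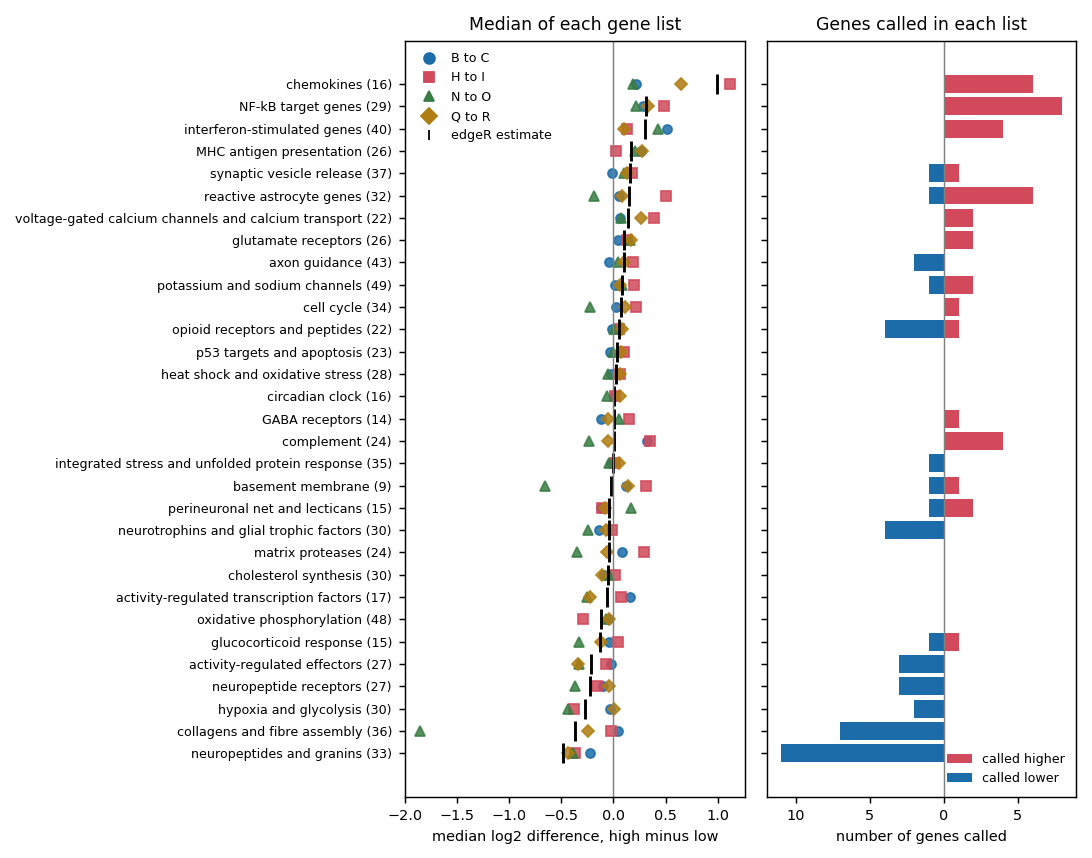
Left, median log2 difference between the high and the low dose for 31 gene lists (number of genes tested in brackets), with coloured points for the 4 letter sets and a black bar for the edgeR estimate. Right, number of genes called higher (red) and lower (blue) in each list. Neuropeptides and granins have 11 lower calls, NF-kB targets have 8 higher calls, and the collagen list has its N and O point far from the others.

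Marker levels were compared to see whether the cultures of the 2 doses held different cells. In bulk RNA, fewer cells of a type and less RNA per cell cannot be told apart. The labelled cells were all present at both doses, with mean marker levels on the log2(CPM + 0.5) scale of 7.59 and 7.74 for neurons, 7.50 and 7.25 for astrocytes and 5.60 and 5.73 for oligodendrocyte precursor cells at the low and the high dose. Oligodendrocytes, at 7.07 and 7.06, and microglia, at 4.38 and 4.38, were present as well. None of 11 cell types differed between the doses beyond the spread of the cultures (exact two-sided permutation p of 0.286 or more, adjusted p of 0.982 or more), which does not show that they were equal. That test pools the cultures and does not use the letter sets. Within sets the level had the same sign throughout for oligodendrocyte precursor cells (0.10, 0.15, 0.18 and 0.06), glutamatergic neurons (0.08, 0.10, 0.21 and 0.17) and pericytes and smooth muscle (-0.26, -0.35, -1.24 and -0.28), and these differences were not tested. Microglial markers ran from 1.99 in R to 6.03 in N and were at 2.09 in Q, so Q and R held few of these transcripts at either dose. Within sets the microglial level differed by 0.22, 0.42, -0.54 and -0.10, and the astrocyte level by 0.04, -0.25, -0.40 and -0.39. Of 10 markers of lymphocytes and neutrophils only S100a8 had enough counts to test.

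Microglial markers were low in both Q and R. Genes of the complement, NF-kB target, chemokine and interferon lists that were called higher differed there by -0.08 for Ifit3 to 2.94 for Lcn2, with 0.17 for Gbp5, 0.22 for Cxcl13, 0.33 for Tlr2, 1.25 for Ccl2 and 2.49 for C3 between them. The part of microglia in these differences was not tested. The neuronal marker level differed by -0.01, 0.10, 0.27 and 0.23 in the 4 sets. In the same order the median of the neuropeptide and granin list differed by -0.23, -0.37, -0.38 and -0.43. Adcyap1, a top gene of that list, differed by -0.82, -1.41, -1.63 and -1.53. The part of neuron numbers in the neuropeptide differences was not tested.

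**Figure D5:**
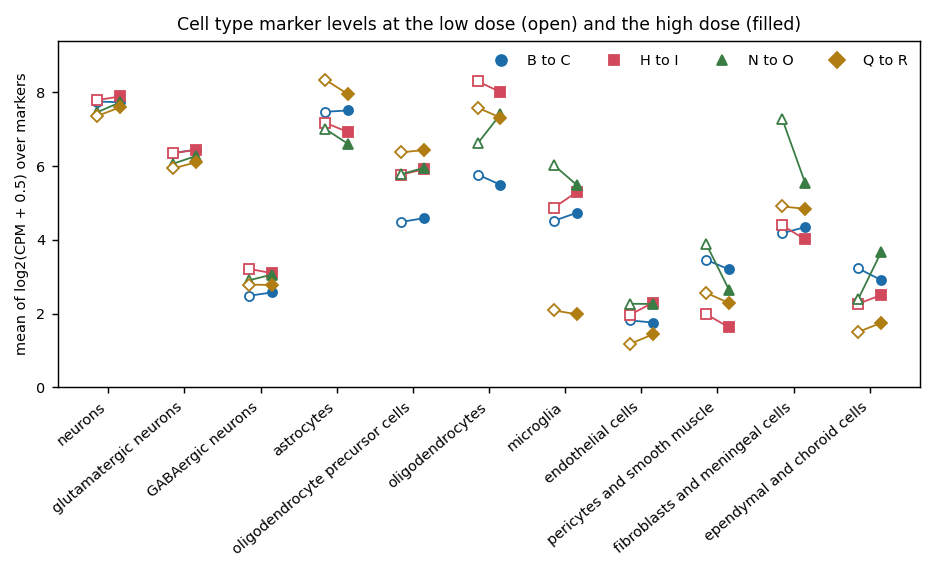
Mean log2(CPM + 0.5) of the marker genes of 11 cell types, with open symbols for the low dose, filled symbols for the high dose and a line joining the cultures of a letter set. Neuronal levels lie between 7.36 and 7.89 in all 8 cultures, while fibroblast markers in low dose N stand apart at 7.28 and microglial markers are near 2.0 in Q and R.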

How the data were processed

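RNA was sequenced from 12 cultures, 4 untreated, 4 at the low and 4 at the high dose, as poly(A)-selected TruSeq libraries on an Illumina NextSeq. Per the labels and the study's methods, the authors used STAR for alignment to the rat genome rn6 and featureCounts for gene counts, and the deposited table holds raw counts for 17337 gene symbols, 2442 of them without a count in the 8 cultures. Whether strand was used in counting is not given in the sources used here, so overlapping and antisense genes cannot be told apart.

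From these counts, 12110 genes passed edgeR's filterByExpr (edgeR 4.0.16, R 4.3.3). Libraries were scaled by TMM. The authors removed factors of unwanted variation with RUVSeq and tested with edgeR. Their number of factors is not given in the sources used here. Here 3 factors were taken by the RUVs procedure from the 8 cultures, with the dose groups as replicates and all tested genes as controls, because the cultures fell into 4 letter sets. They hold 47.4, 32.5 and 12.4% of the variation within doses. The main test was edgeR's quasi-likelihood test with Benjamini-Hochberg adjustment, with calls at adjusted p below 0.05 and more than 0.5 of log2 change. Fold changes are on the log2 scale, from 4 cultures per dose. Their SE was computed as the size of the fold change over the square root of the test's F statistic. It is the error left after the factors and not the spread of the 4 cultures. Adjusted p-values in the text come from this test, or from the same test with the letter sets as a block.

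The replicate labels are letters, so pairing rests on the data. Same-set deviations correlated at 0.877 in B and C, 0.660 in H and I, 0.709 in N and O and 0.892 in Q and R. The highest correlation with an other-dose culture of another set was -0.184, 0.212, 0.212 and -0.183 in the same order. All same-set values were above 0.1, a mark that 0.212 across sets passed too. The blocked value is given where it changes a named call. Differences within sets are on log2(CPM + 0.5). Alternatives were DESeq2 1.42.0, other scalings, filters and factors, and leaving out cultures or sets. Scripts were tested on simulated data. Named genes were the 15 in each direction with the smallest p whose difference had the same sign in all 4 sets; others come from the lists, or (Cox6a2, Mylk, Ncf1, Nos1 and Gch1) were chosen after their values were seen. The comparison, lists and rules were chosen with earlier results of these data known, and the lists are not independent evidence of direction. For names, 14821 symbols matched current rat symbols, 2098 an older one and 418 none. Promoter sequences were not analysed here, and some results are not reported here.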

Additional observations from a re-analysis of the deposited data

Results flagged for a closer look

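Among 84 groups of 4 cultures, made from the named genes and the marker levels, 6 held a culture whose gap to its nearest neighbour took a larger part of the group's whole range than Dixon's critical value for 4 samples. Chance gives about 1 such group in 20. All 6 were cultures B or C, and all lay low on the log2(CPM + 0.5) scale. Adcyap1 was at 3.84 in low dose B against 6.43 to 6.92 in the other low dose cultures, and at 3.02 in high dose C against 5.02 to 5.39 in the other high dose cultures. Vgf stood at 6.75 in B against 8.76 to 9.08, and at 5.79 in C against 7.18 to 7.44. Lsm11 was at 2.92 in C against 4.98 to 5.40, and Dok5 at 3.20 in B against 5.13 to 5.34. Without set B and C, 176 genes were called higher and 166 lower.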

How the results depend on the processing

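No gene was called without factors, with 1 factor, or in all 12 cultures with 1 factor (0 higher and 0 lower in each). With 2 factors 2 genes were higher and 4 lower, and all 12 cultures with 3 factors gave 1 and 0. With the replicate block by letter sets 4 were higher and 17 lower. edgeR's likelihood ratio test gave 150 and 142 with the factors. With the block that test gave 99 and 96, and 126 of these were among the 152 main calls. Adjusted p alone gave 224 and 109. Other tools, scalings and filters kept both counts within 1.5 times. Leaving out 1 culture gave 13 to 184 higher and 16 to 192 lower calls: without B 177 and 192, without C 184 and 167, without H 13 and 16, without I 52 and 49, without N 38 and 24, without O 48 and 36, without Q 36 and 31, without R 39 and 28. Leaving out a set with 2 factors gave 176 and 166 without B and C, 3 and 3 without H and I, 36 and 23 without N and O, and 44 and 30 without Q and R. The cause of these shifts was not tested. All 152 called genes kept their direction in each alternative that tested them (135 of them at 10 or more counts in every culture, and 150 without set H and I or without set N and O). The 30 named genes had 577 values on the same side of the threshold, 196 that lost the call, 6 that gained it and none reversed. The called and the named genes were chosen for their difference in these same cultures, so a kept direction is not separate evidence. Of list medians, 789 moved by less than the SD over the letter sets and 17 by more. Genes with few counts, such as Oprm1 and Oprk1, could not be tested at this depth.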

Other observations

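Other gene lists showed little difference between the doses. The integrated stress and unfolded protein response had 1 lower call among 35 genes, Ddit4, an inhibitor of mTOR signalling (-0.51 ± 0.07, adjusted p = 0.0134, with the block 0.0846). Heat shock and oxidative stress genes (28), p53 targets and apoptosis genes (23), circadian clock genes (16), cholesterol synthesis genes (30) and matrix proteases (24) gave no call with edgeR or DESeq2, with medians of 0.02, 0.03, 0.0090, -0.05 and -0.05. In the same order 5, 4, 3, 4 and 6 of their genes had an unadjusted p under 0.05. The glucocorticoid response list of 15 genes had Lcn2 higher and Ddit4 lower, with a median of -0.13. Of 34 cell cycle genes only Mki67 was called higher, by 0.51 ± 0.11 (adjusted p = 0.0433, with the block 0.389), and it was lower in O than in N. Without low dose H no gene of the stress response, glucocorticoid, cell cycle, axon guidance or basement membrane lists was called.

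Axon guidance genes included 2 lower calls among 43, Slit2 and Sema3a, both secreted guidance cues (-0.68 ± 0.12 and -0.60 ± 0.11, adjusted p = 0.0223 and 0.0247), neither called with the block (adjusted p = 0.295 and 0.119). Of the basement membrane genes, the laminin chain gene Lama5 was higher (0.56 ± 0.10, adjusted p = 0.0247), with no call with the block (adjusted p = 0.265).

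Among called genes outside all lists was Nos1, the neuronal nitric oxide synthase gene, which was higher (1.09 ± 0.23, adjusted p = 0.0469, with the block 0.146). Gch1, whose enzyme makes the cofactor of that synthase, was lower (-1.42 ± 0.22, adjusted p = 0.0166, with the block 0.123). Among cell type markers, Gpr17, a receptor of oligodendrocyte precursors, was higher (0.62 ± 0.11, adjusted p = 0.0215, with the block 0.149), and 52.7 CPM in O stood against 27.7 CPM in N. Tbr1, a transcription factor of deep cortical neurons, was higher with no overlap of the doses, at 16.2, 12.2, 16.4 and 14.8 CPM against 21.5, 22.1, 21.4 and 20.7 CPM (0.54 ± 0.09, adjusted p = 0.0215, with the block 0.119). Nos1 and Gch1 were chosen after their values were seen.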
